A study of Zea mays with 137 samples.

Results

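Arm 1S, the short arm of maize chromosome 1, was followed gene by gene in plants that carried 1, 2 or 3 copies of it. Its members were the genes that start before position 130482590 on chromosome 1 of the W22 maize genome and that had a mean of at least 1 FPKM over the 9 diploid control means of the series. FPKM is fragments per kilobase of transcript, scaled to the mapped fragments of a library, so a level relative to its total. Of 41448 genes with an identifier, 2461 lay on 1S by this position. Of these, 1208 were members, 1252 were below 1 FPKM (543 of them listed at 0 in all 9 control means), and 1, serine acetyltransferase4 (sat4, Zm00004b000264), was left out by the rule. The rule as written uses position and the level in control plants only. How its boundary position was set is not stated, so it may rest on ratios of these data.

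Leaf RNA was measured at 45 days of age in plants with 2 chromosome arms varied in copy number at a time. There were 137 samples from 9 pairs of arms, with 108 aneuploid plants in 33 combinations and 29 diploid controls that segregated in the same crosses. In the 1S+9L pair, 4 plants had double trisomy 1S+9L (3 copies of each arm), 2 had trisomy 1S+monosomy 9L (3 and 1 copies), 4 had monosomy 1S+trisomy 9L (1 and 3 copies), and 3 were wild-type diploids with 2 copies of both. In the other 8 pairs, with 30 combinations, 1S stayed at 2 copies. In 6 of those 30 the long arm of the same chromosome, 1L, was varied.

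All plants were in the W22 inbred background, and the extra or missing arms were made with B-A translocations (TB-1Sb and TB-9Lc for this pair), so the copies of B chromosome segments can vary with the arm. No plant analysed here has 1S varied alone, so an effect of 1S copy number is always seen together with a change of 9L. A plant titled as monosomy 1S+trisomy 9L is listed as trisomy 1S+monosomy 9L in the study's karyotype sheet, and whether it entered the deposited mean is not recorded. Mid-rib tissue is noted in that sheet for both trisomy 1S+monosomy 9L plants, so tissue and karyotype cannot be told apart in that group. The files give 1 mean per group and no value per plant, so every ratio below is a ratio of 2 group means with no replicate error, no n per gene and no test, and the depth of the libraries is unknown.

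A B-A translocation joins an A chromosome arm to the B centromere, whose nondisjunction in the pollen makes sperm that lack the arm or carry it in duplicate. Genes on the varied arm (in *cis*) may follow the number of gene copies, which is called a dosage effect, or stay near the diploid level, which is called dosage compensation. Genes on other chromosomes (in *trans*) can also be modulated, and a level that moves opposite to the copy number is called an inverse effect. Because regulators, subunits of complexes and their targets need not lie on the same arm, these behaviours can mix in any aneuploid.

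The members ranged widely in level. Their mean over the 9 control means had a median of 11.7 FPKM with an interquartile range (IQR) of 4.79 to 25.2. For expressed genes on chromosomes other than 1 and 9, here called unlinked genes (14464 with a mean of at least 1 FPKM), the median was 10.3 and the IQR 4.02 to 23.7. Of the members, 675 were at 10 FPKM or more and 56 at 100 or more. Over the 9 control means the coefficient of variation of a member had a median of 22.5% (IQR 14.0 to 35.0%), beside 22.1% (14.3 to 36.7%) for unlinked genes. This spread holds differences between the families of plants and between plants of a group, which the means do not separate. As a check of the tissue, the gene of the photosystem II reaction centre W protein (Zm00004b018833), part of the photosynthetic apparatus of green leaves, had 601 to 1465 FPKM in the 9 controls, at percentile 99.7 of the expressed genes.

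Together the members took a near constant share of all FPKM while 1S had 2 copies, and the share moved with the arm. It was 5.36 to 5.81% in the 9 controls (5.70% in the 1S+9L control) and 5.17 to 6.24% in the 30 aneuploid groups with 2 copies of 1S. It was 8.30% in double trisomy 1S+9L, 8.12% in trisomy 1S+monosomy 9L and 2.87% in monosomy 1S+trisomy 9L. The 3 groups with varied 1S thus lay outside the range of the 39 group means with 2 copies, above it with 3 copies and below it with 1 copy. The sum of all FPKM in a group ranged from 570672 to 654278. A level relative to the total does not show a change in the size of the transcriptome, and in leaf tissue fewer cells of a type and less RNA per cell cannot be told apart. The study estimated that size by PCR of transcripts against genomic DNA. It reported a change in double trisomy 1S+9L and in monosomy 1S+trisomy 9L, the latter among its greatest increases. Trisomy 1S+monosomy 9L was not listed as changed. All ratios below are relative levels and take no account of this.

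In double trisomy 1S+9L, 1S genes were higher than in the diploids as a group. The median ratio to the control was 1.38 (IQR 1.17 to 1.57), where a full dosage effect would give 1.5. Unlinked genes had a median of 0.933 (IQR 0.802 to 1.06), a shift of -0.10 on the log2 scale, and relative to them the 1S median was 1.48. With higher taken as a ratio of at least 1.3 and lower as at most its inverse, 734 members (60.8%) were higher and 66 (5.46%) lower. The same limit was passed upwards by 12.8% of all 18713 expressed genes with a ratio, and by 6.93% of unlinked genes. Downwards it was passed by 18.9% of all expressed genes and 20.4% of unlinked genes. A stricter reading asks whether a gene lay above all of its own 30 ratios in the combinations with 2 copies of 1S. That held for 294 members (24.3%), beside 2.87% of all expressed genes and 0.318% of unlinked genes. Many genes outside 1S have their own arm varied in part of the 30, which can widen their range. These shares, and those of the same kind below, are therefore not an equal background for 1S genes.

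Trisomy 1S+monosomy 9L gave a lower and wider distribution of 1S ratios. The median was 1.22 (IQR 0.781 to 1.74), and the unlinked median was 0.815 (IQR 0.526 to 1.14), a shift of -0.30 on the log2 scale. Relative to unlinked genes the 1S median was 1.49, close to the 1.48 of double trisomy. At the 1.3-fold limit 558 members (46.2%) were higher and 296 (24.5%) lower. Of all expressed genes 18.9% were higher and 46.2% lower, and of unlinked genes 17.6% and 45.8%. Once each ratio was divided by the unlinked median, the counts were 721 higher and 209 lower, so the higher share of the genes past the limit went from 65.3% to 77.5%. Above all 30 of their unvaried ratios were 317 members (26.2%), beside 4.87% of all expressed genes. Below all 30 were 64 members (5.30%), beside 17.1% of all expressed genes. The 2 plants behind this mean are those noted as mid-rib tissue, and the part of tissue in the wider spread was not tested.

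With 1 copy of the arm, nearly all 1S genes were below the diploid level. In monosomy 1S+trisomy 9L the median ratio was 0.508 (IQR 0.384 to 0.630), against 0.5 for a full dosage effect and 1.02 (IQR 0.761 to 1.26) for unlinked genes. Relative to the latter the median was 0.499. Lower by the 1.3-fold limit were 1063 members (88.0%), beside 29.0% of all expressed genes and 25.6% of unlinked genes. Higher were 29 members (2.40%), beside 22.3% of all expressed genes and 22.1% of unlinked genes. Below all 30 of their unvaried ratios were 705 members (58.4%), beside 6.50% of all expressed genes and 2.88% of unlinked genes. The count above all 30 was 0, beside 3.56% of unlinked genes. Members listed at 0 numbered 2 in this group and 0 in the others of the pair. The 3 comparisons share the mean of the same 3 control plants.

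**Figure D1:**
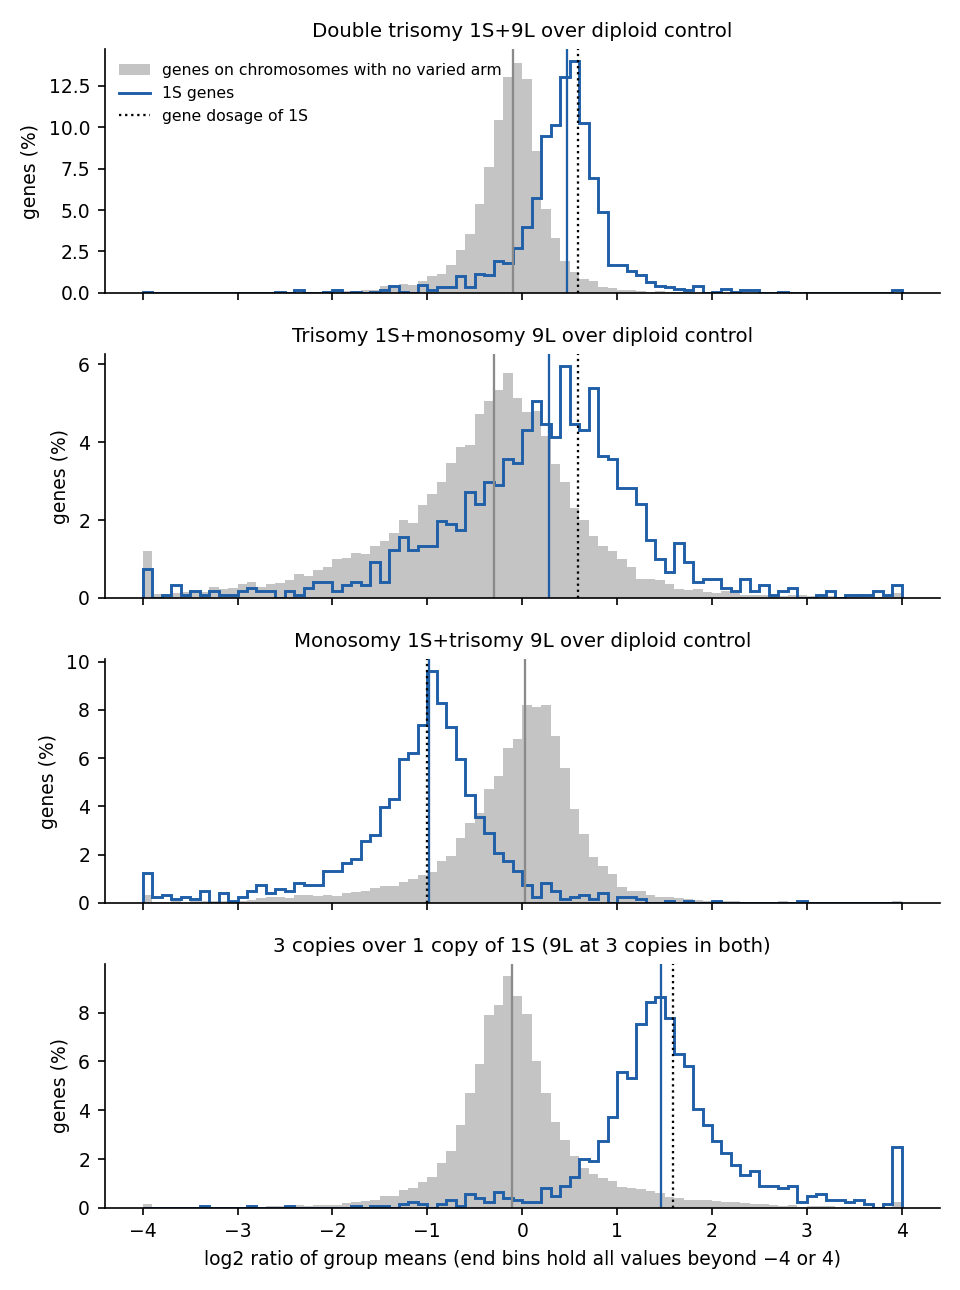
Percent of genes by log2 ratio of 2 group means, for 1S genes (blue outline) and unlinked genes (grey), in the 3 aneuploid groups over the diploid control and in double trisomy 1S+9L over monosomy 1S+trisomy 9L. Solid lines mark the medians, dotted lines the ratio of gene copies, and the end bins hold all genes beyond the axis. The 1S median is 1.38, 1.22 and 0.508 against the control and 2.75 for 3 copies over 1.

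Setting double trisomy 1S+9L against monosomy 1S+trisomy 9L compares 3 copies of 1S with 1 copy, with 9L at 3 copies on both sides and without the control mean. The median ratio of 1S genes was 2.75 (IQR 2.17 to 3.53) where the copies differ by 3, and that of unlinked genes was 0.927 (IQR 0.755 to 1.17), a log2 shift of -0.11. Relative to unlinked genes the 1S median was 2.97. With trisomy 1S+monosomy 9L as the group of 3 copies, so that 9L differs as well, the median was 2.42 (IQR 1.79 to 3.26), the unlinked median 0.798, and the relative value 3.03. Members above 1 made up 95.7% in the first contrast and 93.6% in the second.

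By this ratio the members were sorted into 5 classes. Near gene dosage, meaning within 1.3-fold of 3 (2.31 to 3.9), were 619 members (51.2%), beside 6.75% of all expressed genes and 3.74% of unlinked genes. Compensated, meaning within 1.3-fold of 1, were 40 members (3.31%), beside 51.2% of all expressed genes and 54.4% of unlinked genes, most of which do not differ in copy number here. A further 286 (23.7%) lay between these classes, 230 (19.0%) lay above 3.9 and 33 (2.73%) below 0.769. Of all expressed genes 13.4% lay between, 3.53% above and 25.1% below, and of unlinked genes 12.6%, 2.48% and 26.8%. When trisomy 1S+monosomy 9L took the place of double trisomy, 467 members (38.7%) were near gene dosage and 95 (7.86%) compensated. Of all expressed genes 4.59% and 36.0% were in these classes.

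The classes differed in the kind of gene they held. Members near gene dosage had a median level of 15.0 FPKM, while those above 3.9 had 7.21, the compensated 4.80 and those below 0.769 3.16. The SD of the log2 ratio over the 30 unvaried comparisons, a measure of how much a gene moves when its arm is not varied, had a median of 0.36 near gene dosage, 0.75 above it, 0.68 in the compensated class and 0.94 below it. The median length of the annotated locus was 4884 bp near gene dosage and 5339 bp between the classes, beside 3440 bp for the compensated, 2710 bp for those below and 2248 bp for those above 3.9. Within the class above 3.9 the median ratio to the control was 1.49 in double trisomy and 0.256 in monosomy 1S+trisomy 9L, so its members stood out on the monosomic side. Within the compensated class the same medians were 0.887 and 0.853. These groups define the classes, so such values are partly set by the sorting. Trisomy 1S+monosomy 9L did not enter it. There the median ratio was 0.807 in the class above 3.9, 1.22 near gene dosage and 1.42 between the classes. It was 1.145 in the compensated class and 1.76 in the class below 0.769. The classes thus did not keep their order in the other group with 3 copies of 1S, which rests on the 2 mid-rib plants.

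The copy number of 9L could be changed with 1S held at 3 copies, by setting trisomy 1S+monosomy 9L over double trisomy 1S+9L. The median of 1S genes was 0.891 (IQR 0.610 to 1.20) and that of unlinked genes 0.867 (IQR 0.596 to 1.16), a relative value of 1.03. The 1S genes therefore lay with the unlinked genes in this contrast, which again rests on the 2 mid-rib plants.

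Along the arm the 3-to-1 ratio was high throughout. In bins of 10 Mb counted from the telomere of 1S, the median ran from 2.36 in the 19 members at 120 to 130 Mb to 3.06 in the 46 at 90 to 100 Mb. The 184 members of the first 10 Mb had 2.71 and the 130 at 40 to 50 Mb had 2.90. The IQRs of neighbouring bins overlapped widely, and no bin with 19 or more members had a median under 2.36. The last bin held 2 members with a median of 1.68.

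**Figure D2:**
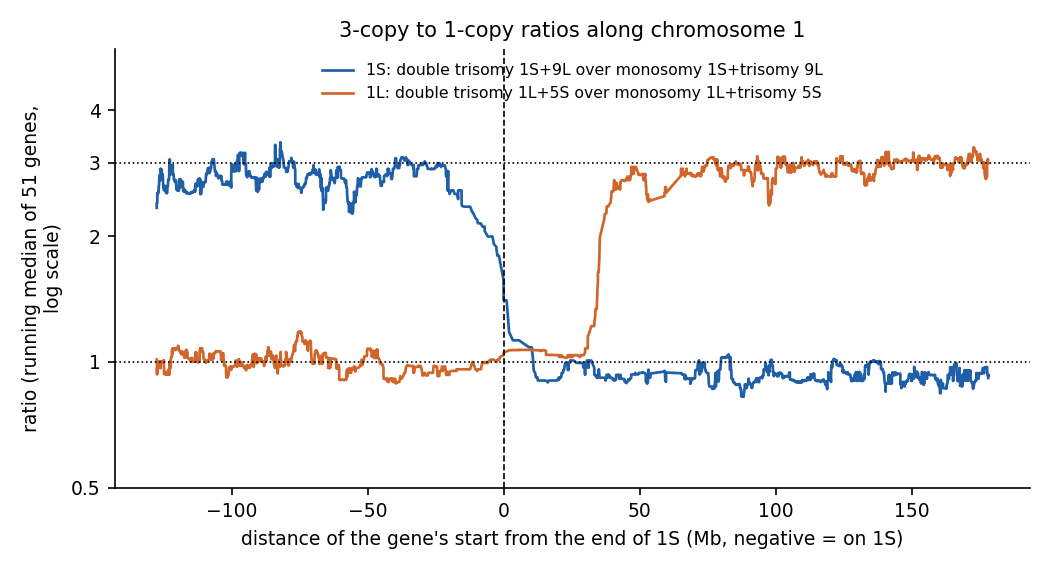
Running median over 51 neighbouring expressed genes of the 3-copy to 1-copy ratio (log axis) against distance from the boundary of 1S in Mb (negative on 1S), for the 1S contrast (blue) and the 1L contrast (orange). The blue line stays above 2 over most of 1S and near 1 beyond its boundary, and the orange line does the reverse with its step farther along the chromosome.

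The boundary used by the rule was compared with the ratios themselves. How it was chosen is not stated, so this is no independent check of it. The step that best split the 3-to-1 ratios along chromosome 1 fell between gene starts at 130428467 and 131514460, an interval that holds the boundary. The 10 members nearest to it had a median of 2.25 and the 10 nearest expressed genes outside 0.827. The nearest member, Zm00004b002461 (chromosome 1, 130428467 to 130440306), had 17.4 FPKM in the control, 24.7 in double trisomy, 19.0 in trisomy 1S+monosomy 9L and 13.8 in monosomy 1S+trisomy 9L, a 3-to-1 ratio of 1.79. The nearest expressed gene outside, Zm00004b002465 (131514460 to 131532278), had 22.3, 15.5, 14.9 and 19.2 FPKM in the same order, a ratio of 0.807. The first therefore had its highest level in double trisomy and its lowest in monosomy, while the second was highest in the control.

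The limit of 1 FPKM also has genes just beside it. The 3 genes of 1S just below it had means of 0.981, 0.989 and 0.995 FPKM, and the 3 just above had 1.01 each. The 115 genes of 0.5 to 1 FPKM, which are not members, had a median 3-to-1 ratio of 2.74, and the 103 members of 1 to 2 FPKM had 2.78. The gene left out by the rule, sat4, which encodes an enzyme of cysteine synthesis, had 41.6 FPKM in the control, 57.1 in double trisomy, 97.9 in trisomy 1S+monosomy 9L and 17.2 in monosomy 1S+trisomy 9L, a ratio of 3.33.

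Members that varied most when 1S was not varied were least often near gene dosage when it was. The members were split into quartiles of 302 by the SD of their log2 ratio over the 30 unvaried comparisons, none of which entered the 3-to-1 ratio. Near gene dosage were 66.9% in the steadiest quartile (SD 0.13 to 0.30), then 65.9%, 49.0% and 23.2% in the most variable (SD 0.66 to 3.34). The median ratio was 2.56 (IQR 2.20 to 2.94) in the steadiest quartile, then 2.75 and 2.72, and 3.58 (IQR 2.03 to 6.51) in the most variable. For unlinked genes within the same SD limits the medians were 0.886, 0.898, 0.905 and 1.07, though the SD of some of these holds copy changes of their own arm. Compensated members made up 0.993% of each of the 2 steadiest quartiles, 3.64% of the next and 7.62% of the last. Members with a high SD also had lower levels, a median of 4.27 FPKM in the last quartile beside 16.3 in the first, and the part of sampling error in the spread was not tested.

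By level, the median 3-to-1 ratio changed little, from 2.80 in the quartile of lowest mean FPKM to 2.75, 2.68 and 2.82 in the next ones. The share near gene dosage went from 30.1% in the lowest to 53.3%, 58.6% and 62.9%, and the lowest quartile was wider (IQR 1.83 to 4.54, beside 2.34 to 3.45 in the highest). By length of the locus the median ran from 3.40 in the shortest quartile (up to 2386 bp) to 2.80, 2.69 and 2.53 in the longest (from 7159 bp). Unlinked genes in the same length limits had 1.15, 0.936, 0.890 and 0.861, and relative to these the 1S medians were 2.95, 2.99, 3.02 and 2.94. Short genes thus had higher ratios on and off the arm alike.

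**Figure D3:**
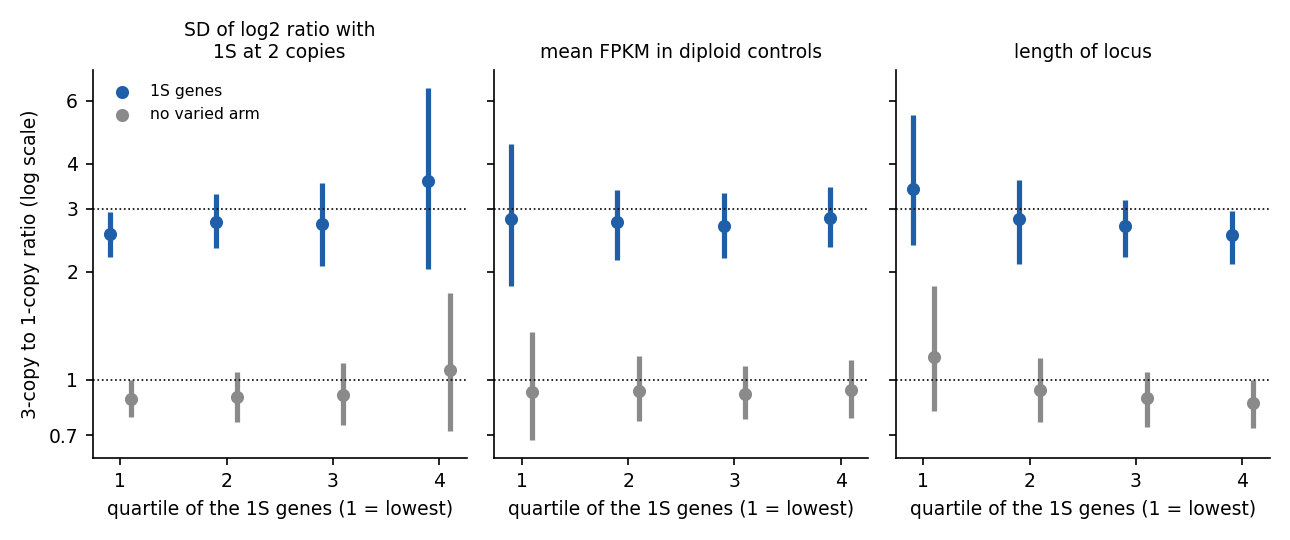
Median (point) and IQR (bar) of the 3-copy to 1-copy ratio (log axis) by quartile of the SD of the log2 ratio over the unvaried comparisons, of mean FPKM and of locus length, for 1S genes (blue) and unlinked genes within the same limits (grey). The bars of 1S genes widen towards the most variable and the lowest genes, and both colours slope downwards with length.

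Of the 1208 members, 106 share their annotated locus with another gene, so that their FPKM depends on how fragments were divided between the overlapping genes. Their median 3-to-1 ratio was 2.60, beside 2.76 for the 1102 that do not.

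The files give identifiers without gene names, so the genes below are named by identifier and position and without a function. Among 670 members with at least 10 FPKM over the controls and at least 1 FPKM in every group of the pair, the most abundant near gene dosage was Zm00004b000489 (15791486 to 15805861). It had 506.7 FPKM in the control, 653.6 in double trisomy, 1139 in trisomy 1S+monosomy 9L and 276.1 in monosomy 1S+trisomy 9L, a 3-to-1 ratio of 2.37. Next was Zm00004b001130 (42066208 to 42068294), with 578 FPKM in the control, 516 in double trisomy, 671 in trisomy 1S+monosomy 9L and 219.8 in monosomy 1S+trisomy 9L, a ratio of 2.35. Its double trisomy mean lay below the control mean, so its ratio near 3 came from the monosomic side. In the 30 unvaried comparisons the ratio of the first ran from 0.514 to 1.45 and that of the second from 0.680 to 2.10.

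The 2 most abundant compensated members were far from steady elsewhere. Zm00004b001112 (40834138 to 40836632) had 106 FPKM in the control, 169 in double trisomy and 162 in monosomy 1S+trisomy 9L, a 3-to-1 ratio of 1.04, but 560 in trisomy 1S+monosomy 9L. Its unvaried ratios ran from 0.410 to 2.52. Zm00004b001280 (48018864 to 48019852) had 63.9 FPKM in the control, 36.8 in double trisomy, 110.0 in trisomy 1S+monosomy 9L and 29.6 in monosomy 1S+trisomy 9L, a ratio of 1.24. Its unvaried ratios ran from 0.0721 to 9.41. A ratio of group means near 1 in such genes is smaller than their range between combinations that leave 1S at 2 copies.

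Among the same 670 members, the lowest 3-to-1 ratio belonged to Zm00004b001577 (62900564 to 62902320), while some members outside them were lower still. It had 46.3 FPKM in the control, 11.1 in double trisomy, 27.4 in trisomy 1S+monosomy 9L and 26.5 in monosomy 1S+trisomy 9L, a ratio of 0.418. All 3 aneuploid means were below the control, whatever the copies of 1S, and the double trisomy ratio of 0.239 lay below its unvaried range of 0.350 to 1.68. Second was Zm00004b001639 (65317767 to 65320217), with 10.9 FPKM in the control, 2.90 in double trisomy, 19.2 in trisomy 1S+monosomy 9L and 6.47 in monosomy 1S+trisomy 9L, a ratio of 0.448. Its 2 trisomic means lay on opposite sides of the control, and its unvaried ratios ran from 0.420 to 6.05.

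The steadiest and the least steady of these genes gave the clearest contrast. Zm00004b002146 (97433803 to 97439592) had the smallest SD, 0.13, with unvaried ratios of 0.835 to 1.23. Its levels followed the copies, with 17.3 FPKM at 1 copy, 28.4 in the control, and 45.8 in double trisomy and 58.7 in trisomy 1S+monosomy 9L at 3 copies, a 3-to-1 ratio of 2.65. Zm00004b000743 (25632583 to 25637107) had the largest SD, 2.63, with unvaried ratios of 0.00327 to 14.2. It had 27.1 FPKM in the control, 21.5 in double trisomy, 2.92 in trisomy 1S+monosomy 9L and 4.76 in monosomy 1S+trisomy 9L, so its ratio of 4.51 did not follow the copies of 1S across the 3 groups.

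**Figure D4:**
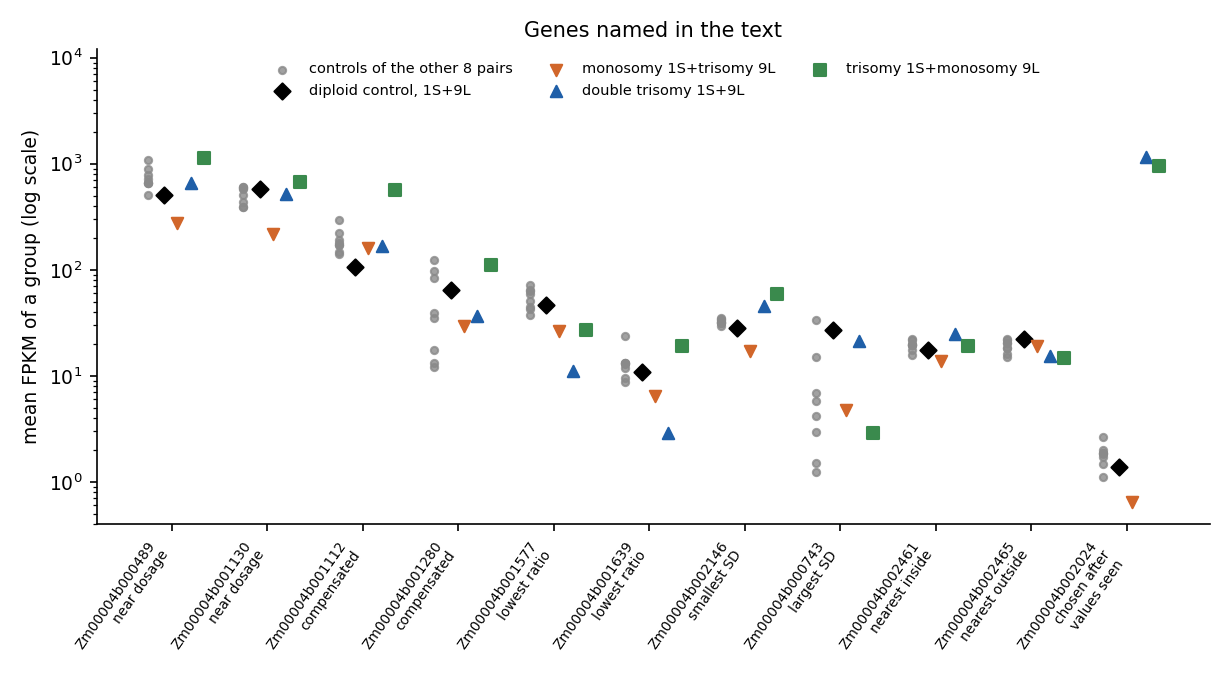
FPKM (log axis) of named 1S genes and of the nearest gene outside the boundary in the 9 diploid control means (grey points for the other pairs, black diamond for 1S+9L) and in monosomy 1S+trisomy 9L (orange triangle), double trisomy 1S+9L (blue triangle) and trisomy 1S+monosomy 9L (green square). The means of Zm00004b002146 lie in the order of copies, while those of Zm00004b000743 scatter over the range of its controls.

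A member far outside any copy ratio was Zm00004b002024 (87019978 to 87020853), picked for naming with its values in view. It had 1.39 FPKM in the control, 1169 in double trisomy and 946 in trisomy 1S+monosomy 9L, against 0.653 in monosomy 1S+trisomy 9L. Its 9 control means lay between 1.12 and 2.67 FPKM, and the highest of the 30 groups with 2 copies of 1S had 5.50. It was thus high in both groups with 3 copies of 1S and low in all others. Members at least 3-fold over the control in both groups with 3 copies numbered 11 (0.911%), beside 24 unlinked genes (0.166%). A full dosage effect alone gives 1.5 for 1S genes, so the limit is nearer for them, and the share of all expressed genes was not taken. The 11 were not alike. Zm00004b002314 had 54.2 FPKM in double trisomy and 16.7 in trisomy 1S+monosomy 9L, with at most 6.08 elsewhere. Zm00004b001672 had 39.7 and 35.5 FPKM, but up to 122 elsewhere.

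Where 1S was not varied, its genes stayed with the unlinked genes. Over the 30 combinations the median ratio of 1S genes ran from 0.893 in monosomy 1L+trisomy 5S to 1.15 in double monosomy 6L+9S, with a median of 1.02. It was below 1 in 11 of the 30. Unlinked medians ran alongside, and the log2 difference between both ran from -0.03 in trisomy 4L+tetrasomy 6L to 0.06 in double monosomy 3L+4L, above 0 in 20 of 30. In double trisomy 1S+9L and trisomy 1S+monosomy 9L the same difference was 0.57 and 0.58, and in monosomy 1S+trisomy 9L the 1S median was 0.499 of the unlinked median.

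Single genes moved more than the medians. The shares of members higher at the 1.3-fold limit ran from 4.47 to 35.8% over the 30 combinations, and those lower from 7.95 to 37.1%. For the unlinked genes of each pair these shares were much the same, 5.82 to 35.5% higher and 8.42 to 34.7% lower. The width of the distribution, as the 75th over the 25th percentile, ran from 1.23 to 1.93. Members within 1.3-fold of the control in all 30 numbered 6, and the median member passed the limit in 12. Neither value was taken for unlinked genes. The SD of the log2 ratio over the 30 had a median of 0.43 (IQR 0.30 to 0.66) for 1S genes and 0.54 (IQR 0.36 to 0.76) for unlinked genes. Some unlinked genes had their own arm varied in part of the 30, which can widen their SD, so these 2 values are not on an equal footing. These are means of 1 to 5 plants each, and the part of plant-to-plant spread in this movement was not tested.

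**Figure D5:**
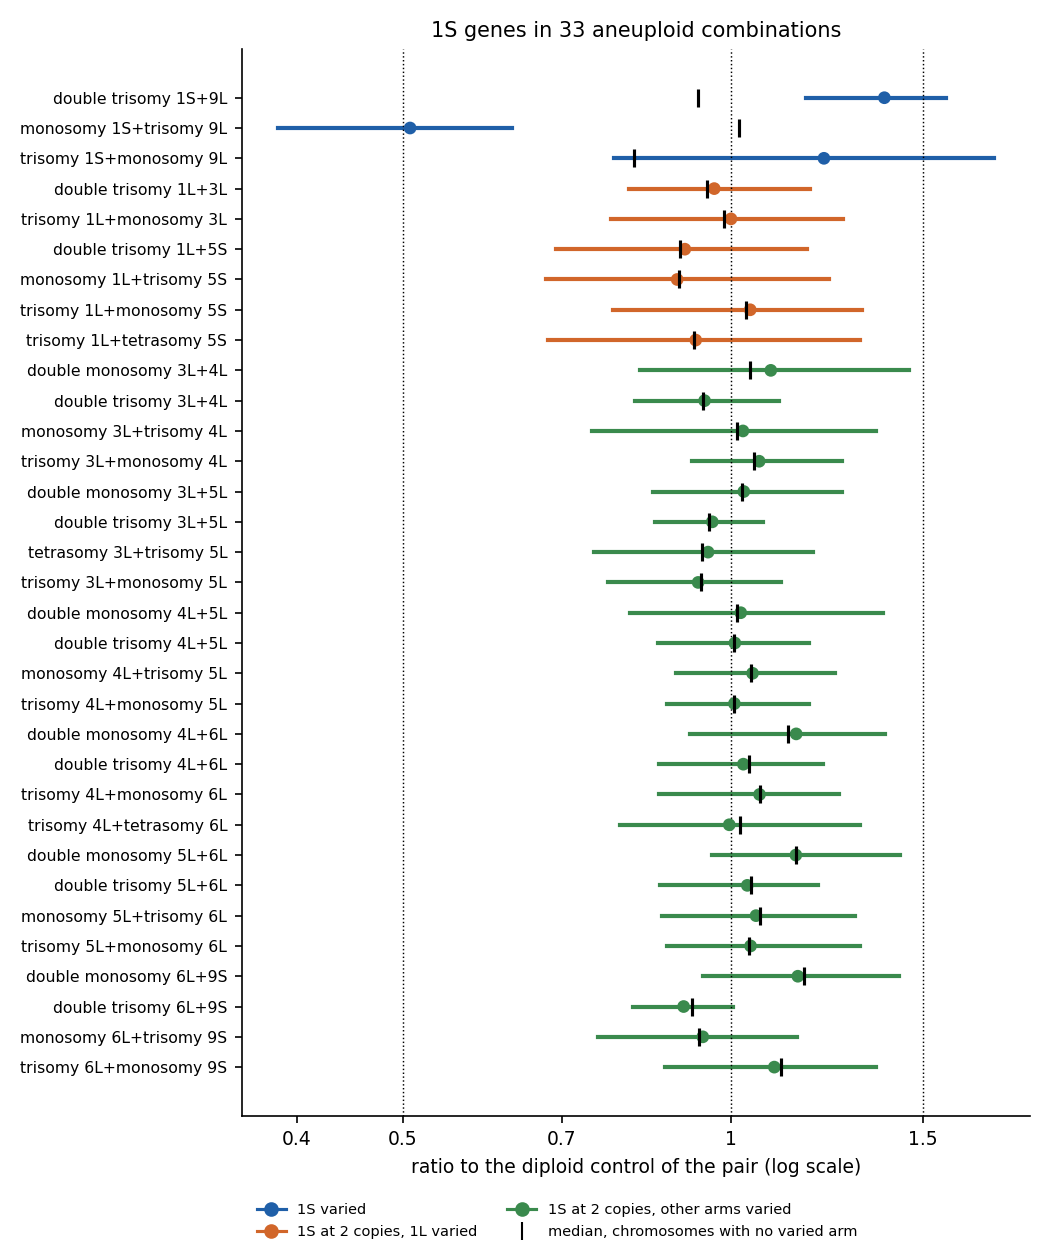
Median (point) and IQR (bar) of the ratio of 1S genes to the control in each of the 33 combinations, with the unlinked median as a black tick, for 1S varied (blue), 1L varied (orange) and other arms varied (green). The points lie at or close to the ticks in all but the 3 blue combinations, which stand at 1.38, 1.22 and 0.508.

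Varying the other arm of the same chromosome was a separate question. In the 6 combinations with 1L at 1 or 3 copies, the 1S median ran from 0.893 to 1.04, beside 0.905 to 1.15 in the other combinations with 2 copies of 1S. The log2 difference from unlinked genes, averaged over the combinations of a pair, was 0.02 for 1L+3L and 0.01 for 1L+5S. It ran from -0.01 to 0.03 in the other 6 pairs. The mean was 0.0141 ± 0.00979 (SD, n = 2 pairs) with 1L varied and 0.00242 ± 0.0136 (SD, n = 6 pairs) otherwise, a difference of 0.0117 on the log2 scale with p = 0.286 in a two-sided exact permutation test over pairs, where the smallest possible p is 0.0357. Without the pair 3L+4L the difference was 0.0164 with p = 0.0476 in the same exact test, the smallest p that 7 pairs allow. The call therefore depends on that pair, and over all alternatives p ran from 0.0476 to 0.714. Either difference is a small part of the 0.57 or more seen when 1S itself was varied.

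The 3-to-1 ratio of 1S can be set beside those of 1L and 9L, which had both 3 and 1 copies against a partner at 3 copies. Other arms with such groups, among them 5S and 3L, were not taken. The genes of 1L and 9L were bounded by the step that best split these same ratios, so their values are partly set by that choice. The median was 2.75 for 1S, 2.93 for 1571 genes of 1L and 3.34 for 883 genes of 9L. Relative to the unlinked genes of the same contrast these were 2.97, 2.92 and 2.89. Near gene dosage were 51.2% of 1S genes, 59.6% of 1L genes and 38.1% of 9L genes, and differences between arms were not tested. The 9L contrast uses the trisomy 1S+monosomy 9L mean and hence the mid-rib plants.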

How the data were processed

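Leaf RNA of 137 plants was sequenced from stranded, rRNA-depleted libraries. The authors used fastp for trimming and STAR for alignment to the W22 and B chromosome sequences, after organelle reads were taken out, and Cuffdiff for each combination. Versions, W22 release and library scaling are not given in the sources used here. The 9 deposited tables hold, per comparison and gene, 2 group means in FPKM, which the authors computed over plants. They also hold the authors' log2 fold change, test statistic, p-value, q-value, status and significance call, which were not used. A row without identifier (1 per comparison) was left out.

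Plants were grouped by title. Ratios are of 2 means with no pseudocount. Genes needed a mean of at least 1 FPKM over 9 control means, and a gene with both means at 0 gave no ratio. Unlinked genes lie on chromosomes, from 1 to 10, that hold no varied arm and are not chromosome 1. A ratio of 1.3 or its inverse counted as different. The depth of a library and the spread between plants are unknown, so no test between groups was made. The test over pairs enumerated all assignments, at a threshold of 0.05. The arm 1S has 2 copies in all 8 of these pairs. Arms 1L and 9L were bounded by the step that best split their 3-copy to 1-copy ratios.

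The genes named are the 2 most abundant near gene dosage, the 2 most abundant compensated, the 2 with the lowest ratio, the 1 with the smallest and the 1 with the largest SD (all among members of at least 10 FPKM and at least 1 FPKM in each group of the pair), and the nearest on each side of the boundary. The members, the rule and the alternatives were chosen with earlier results of these data known. The reference table given matched 0 identifiers, so no sequences are shown and no gene names were taken from it. Alternatives were other filters, pseudocounts, a fold of 1.5, scaling to unlinked genes, leaving out genes within 10 Mb of the boundary, and leaving out pairs. The work was done in Python 3.11.15 with pandas 2.3.3 and numpy 2.4.6, and figures were drawn with matplotlib 3.10.9. The functions were tested on simulated data.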

Additional observations from a re-analysis of the deposited data

Results flagged for a closer look

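In the 9 diploid control means, Zm00004b001639 stood at 23.8 FPKM in the control of the pair 4L+6L, with the next highest control mean at 13.3. The gap between them was 0.703 of the whole range of the 9. Of 13 sets of values looked at in this way this was the 1 that stood apart, and chance alone sets about 1 in 20 apart. This gene is among the named members with the lowest 3-copy to 1-copy ratio, 0.448, which uses other plants.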

How the results depend on the processing

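No paired analysis was possible because the tables hold group means and no value per plant. For the same reason leaving out each plant in turn was not run. There were 92 alternative values of the main results and 33 of single genes. A reversal was defined only for medians whose interval excluded 1, the difference between pairs, and single genes past the 1.3-fold limit. None was seen, and shares of members could not reverse by this definition. Of the 92 values, 61 stayed close to the value given, 30 moved and 1 crossed the threshold of its test. For medians over genes and shares, close meant inside a 95% interval over genes, which holds no plant-to-plant error. For the median over unvaried comparisons it meant within 1 SD of the comparisons. The cause of these moves was not tested.

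With no filter on the mean (genes above 0), the double trisomy median was 1.36, the 3-to-1 median 2.67, near gene dosage 43.3%, compensated 6.49%, higher in double trisomy 56.2% and lower in monosomy 1S+trisomy 9L 83.3%. With at least 10 FPKM, the trisomy 1S+monosomy 9L median was 1.27, near gene dosage 60.1%, compensated 2.07%, higher 65.3% and lower 92.4%. With the study's filter (2 means that sum to at least 1 FPKM) near gene dosage was 48.1%. With a pseudocount of 1 FPKM, the medians of double trisomy, monosomy 1S+trisomy 9L and 3-to-1 were 1.34, 0.560 and 2.44, with 46.3% near gene dosage, 5.22% compensated, 55.8% higher and 85.1% lower.

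Divided by the unlinked median, the 2 trisomic medians were 1.48 and 1.49, the 3-to-1 median 2.97 and the higher share 70.1%. At a fold of 1.5, 67.2% were near gene dosage, 6.37% compensated, 33.1% higher and 80.0% lower. With trisomy 1S+monosomy 9L as the group of 3 copies, an alternative chosen after seeing the data, the values were 2.42, 38.7% and 7.86%.

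Leaving out each pair in turn gave 1.01 to 1.03 for the median over unvaried comparisons and 0.00475 to 0.0186 for the difference of pairs with 1L varied. Without the pair 3L+4L this difference was 0.0164 with p = 0.0476 by the exact permutation test, the smallest p that 7 pairs allow. Over its alternatives p ran from 0.0476 to 0.714. Ratios of low genes are limited by depth, which is unknown.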
